A study of Mus musculus with 2 samples.

Results

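Quiescent Ptcra-high DN3 thymocytes are resting T cell precursors at the third double-negative stage, which precedes the appearance of the CD4 and CD8 coreceptors. They were picked from 2 single-cell libraries by their raw counts of unique molecular identifiers (UMIs, each 1 captured RNA molecule). A kept cell had at least 500 detected genes, at least 1000 UMIs and at most 10% of its UMIs from mitochondrial genes. A gated cell also had at least 3 UMIs of Ptcra, at most 1 UMI of Cd8a and Cd8b1 together and no Foxp3 UMI. It had at most 2 UMIs of 4 cell cycle genes together (Rrm2, Top2a, Mki67, Ube2c) and at most 4 UMIs of 4 interferon genes together (Isg15, Ifit1, Rsad2, Oasl2). In all, 1404 of 14638 kept cells met these limits, 845 of 7137 in the WT library and 559 of 7501 in the SETDBf/fCD4-Cre library (cKO).

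Mouse thymocytes had been enriched with magnetic beads against CD25, the interleukin-2 receptor α chain, and captured as single cells on the 10x Genomics platform (3′ chemistry v3.1), which counts the 3′ ends of transcripts. The 2 genotypes were WT without further detail and mice with floxed SETDB alleles and the CD4-Cre transgene, and the labels leave unsaid whether Setdb1 or Setdb2 was floxed. The CD4 promoter drives Cre from about the end of the double-negative stage onwards, so the gated cells lie at or before the point where deletion is thought to begin, and the order of these events was not measured. Each genotype is 1 library, and the labels give no number, age or sex of animals. No test between genotypes was therefore possible, and every interval given is a 95% interval that covers counting error only.

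As background, DN3 thymocytes rearrange the T cell receptor β gene with the RAG1 and RAG2 recombinase under Notch signals from the thymic stroma. A cell with a productive β chain pairs it with the invariant pre-Tα chain, which Ptcra encodes, and with the CD3 subunits to form the pre-T cell receptor. Signals from that receptor end the resting state in a step called β-selection, after which Notch target genes and Ptcra are shut off as cells divide and become double positive (DP).

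The promoter of Ptcra, the gene that chose these cells, is shown because its elements are among the textbook links between Notch, E proteins and this stage. The RefSeq sequence of the 250 bases before its annotated start lies on the minus strand of GRCm38.p6 at chr17:46763713-46763962. Capitals mark every CAGCTG, an E-box that E proteins such as the products of Tcf3 and Tcf12 can bind, and every TGGGAA, the core letters of the site of the Notch effector RBPJ, with both strands searched and no overlap between the motifs.

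Ptcra: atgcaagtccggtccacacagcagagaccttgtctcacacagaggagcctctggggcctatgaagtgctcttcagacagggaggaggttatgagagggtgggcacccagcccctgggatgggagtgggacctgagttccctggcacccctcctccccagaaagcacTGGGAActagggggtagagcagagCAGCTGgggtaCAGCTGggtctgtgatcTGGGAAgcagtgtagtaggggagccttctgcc

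Each motif occurs 2 times, CAGCTG at 60 to 55 and 49 to 44 bases before the start and TGGGAA at 84 to 79 and 32 to 27 bases before it. Among 32851 promoter windows of this length, 13.0% held CAGCTG and 1.26% held it at least 2 times, while 21.6% held TGGGAA and 2.77% held it at least 2 times. CAGCTG was found in 4 of 16 matched DN3 marker genes (Ptcra, Rag1, Lef1 and Tcf12), and TGGGAA in 7 of 22 matched genes of the Notch list, a list that includes Ptcra. A gene counted if any of its windows held the motif, so these counts are by gene and the shares above by window. A match is a description of letters and not evidence that a factor binds there.

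The WT matrix held 7852 barcodes and 89370968 UMIs in all, the cKO matrix 8461 and 76668166. Depth inside the gate was alike in both: the median cell had 8400 UMIs and 2741 genes in WT, and 8415 UMIs and 2697 genes in cKO. Over all kept cells the medians differed, at 7882 UMIs in WT and 4854 in cKO, and the gate's limits are in raw UMIs. The gated cells summed to 7697046 UMIs in WT and 5225580 in cKO, and levels are given as CPM, the UMIs of a gene in every 1000000 UMIs of these sums. Mitochondrial genes took a median of 5.86% and 5.78% of a cell's UMIs, in that order. The libraries shared 16 barcodes, of which 2 were gated in either library and none in both. A doublet caller marked 3 gated WT cells and 6 gated cKO cells, which were kept.

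The gated cells carried the DN3 programme in both libraries. Of the named markers that the gate did not use, at least 1 UMI of Notch3, Hes1, Dtx1 or H19 was present in 97.6% of WT and 97.1% of cKO cells, and at least 2 of these 4 genes were detected in 82.8% and 78.4%. Il2ra, which encodes CD25 and was selected for by the beads, had a UMI in 91.6% and 90.7%, beside 44.4% and 33.3% of thymic B cells. Such B cells serve as a reference, in which free RNA, doublets and expression of their own were not told apart. Of them, 9 of 45 in WT and 5 of 24 in cKO (20.8%) had a Notch3 UMI, and 14 (31.1%) and 6 a Hes1 UMI. In resting DP cells (defined below), Notch3 was in 5.16% and 5.78% and Hes1 in 3.46% and 3.66%, at median depths of 2555 and 2355 UMIs. The B cells had median depths of 7565 UMIs in WT and 12501.5 in cKO. Gated cells with Notch3 (78.7% and 78.5%) or Hes1 (78.1% and 80.7%) were well above those shares. H19, an imprinted noncoding RNA, had a UMI in 37.2% and 24.0% of gated cells, beside 11.1% (5 of 45) and 0 of 24 B cells, where 0 allows a share of up to 12.5%.

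Receptor and ligand-response genes of the Notch pathway set the gated cells beside their neighbours, in values given as a description because the cells were picked by a Notch target. The neighbours are Ptcra-high cells with more than 2 cell cycle UMIs (cycling, 227 WT and 222 cKO cells), resting cells with Myl10 but fewer than 3 Ptcra UMIs (Myl10-positive, 996 and 1018 cells), and resting DP cells with Cd4, Cd8 and Rag1 UMIs (1530 and 2267 cells). Notch3, a receptor and itself a Notch target, was at 199.8 CPM (WT) and 179.5 CPM (cKO) in gated cells. It was at 42.9 and 55.0 CPM in cycling cells, 84.8 and 91.5 CPM in Myl10-positive cells, and 26.7 and 34.0 CPM in resting DP cells. Hes1, a transcriptional repressor induced by Notch, was at 422 and 468 CPM in the gate and at 42.1 and 64.0 CPM in resting DP cells. Dtx1, a ubiquitin ligase that modulates Notch, was at 100.2 and 85.7 CPM in the gate, about as low in cycling cells (20.2 and 21.2 CPM) as in Myl10-positive cells (24.8 and 31.0 CPM). Notch1, the receptor that starts T lineage commitment, was at 609 and 556 CPM, against 388 and 359 CPM in Myl10-positive cells. The order gate, Myl10-positive, cycling, resting DP held in both libraries for Notch1, Notch3, Hes1 and Il2ra (608 and 572 CPM in the gate). That order leaves out the resting Ptcra-high cells that had over 4 interferon UMIs (interferon-high, 155 WT and only 18 cKO cells). They had Notch3 at 195.5 and 173 CPM, Hes1 at 437 and 448 CPM, Dtx1 at 124 and 59.2 CPM, and H19 at 254 and 42.3 CPM. Of these 4 genes, all but Notch3 were higher there than in the gate in WT, and all 4 were lower there in cKO.

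**Figure D1:**
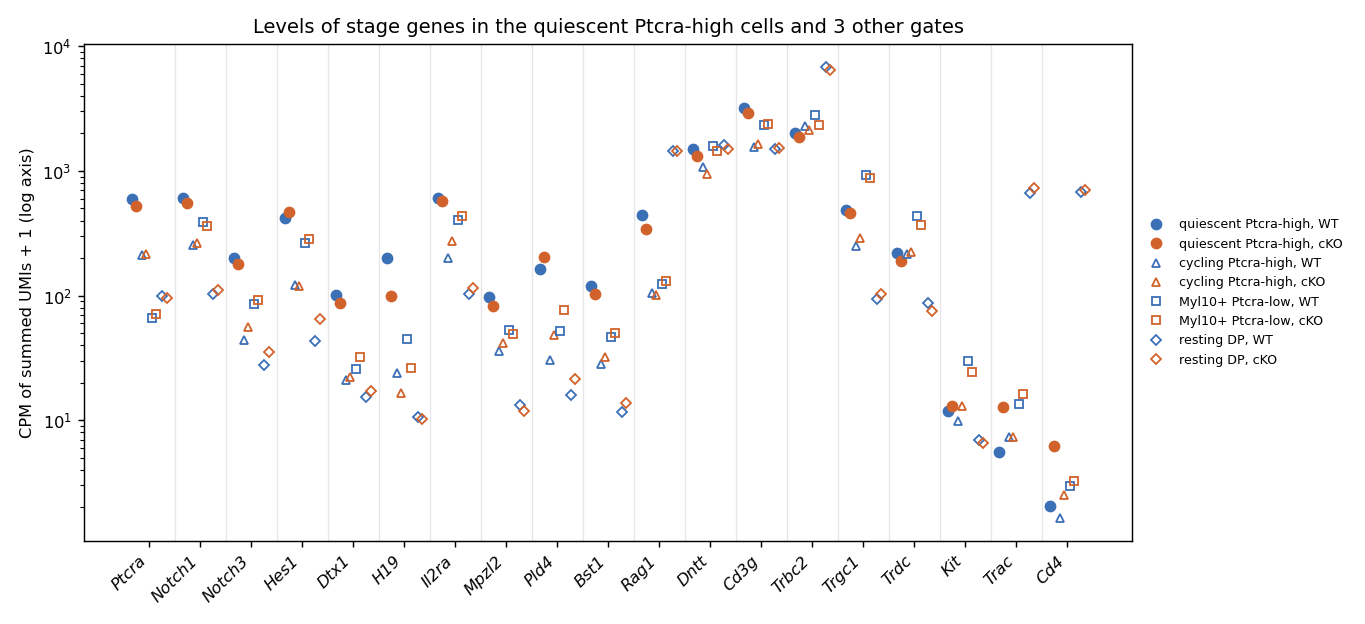
Level of 19 stage genes (CPM + 1, log axis) in the gated cells (filled points) and in cycling, Myl10-positive Ptcra-low and resting DP cells (open points), with WT in blue and cKO in orange, 1 library each. Of these 4 gates, the gated cells have the highest Notch3, Dtx1 and H19 in both libraries, resting DP cells have the highest Rag1 and Trac, and Ptcra was used to choose the gate.

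Recombination genes followed another order. Rag1, a catalytic subunit of the V(D)J recombinase, was at 443 CPM (WT) and 341 CPM (cKO) in gated cells. That lay above cycling cells (103 and 99.6 CPM) and Myl10-positive cells (122 and 129 CPM) and below resting DP cells, which were chosen by Rag1. Its partner Rag2 was at 32.5 and 32.0 CPM in the gate. Dntt, the polymerase that adds untemplated bases to the joins, was at 1486 and 1304 CPM. Spib, an ETS-family factor known from DN3 cells, was at 32.5 and 22.6 CPM in the gate and at most 12.9 CPM in each of the other 3 gates.

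The receptor chains marked cells before α-chain expression. The CD3 subunits Cd3g (3184 and 2917 CPM), Cd3d (1571 and 1539 CPM) and Cd3e (1077 and 1028 CPM) were all present. The β constant genes Trbc1 and Trbc2 were at 1378 and 2012 CPM in WT and at 1265 and 1867 CPM in cKO, and Trbc2 was at 6869 and 6482 CPM in resting DP cells of WT and cKO. Trac, the α constant gene, was at 4.55 and 11.7 CPM in the gate and at 660 and 727 CPM in resting DP cells. A γ constant gene was detected in 98.0% of WT and 98.6% of cKO gated cells and a β constant gene in 99.4% and 99.5%. Variable segments were seen less often by this 3′ assay: a β variable segment in 5.09% and 5.37% of cells, an α variable segment in 4.97% and 4.83%, and a γ variable segment in 52.5% and 60.5%. Trdc, the δ constant gene, was at 218 and 188 CPM.

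Among genes outside the gate rule with the highest levels relative to all other kept cells, H19 came with Pld4, Gm4632, Notch3, Dtx1, Bst1, Khdc1a, Hdac4, Slc5a9, Itgb4, Rab44, Hes1, Tshz2, Arhgef10l and Epcam. Those other cells include the interferon-high Ptcra-high cells, which in WT had more H19, Dtx1 and Hes1 (above) than the gated cells. In WT they also had more Pld4 (208 CPM), Khdc1a (172 CPM), Hdac4 (419.9 CPM), Bst1 (128 CPM), Slc5a9 (118 CPM), Rab44, Arhgef10l and Itgb4. The other listed genes, Gm4632, Notch3, Tshz2 and Epcam, were lower there in WT. In the 18 interferon-high cKO cells, only Bst1 (148 CPM) and Itgb4 (50.7 CPM) were higher than in the gate. In the gate, Pld4, an exonuclease of the phospholipase D family, was at 162 CPM (WT) and 203 CPM (cKO). Bst1, an ectoenzyme related to CD38, was at 117 and 102 CPM. Hdac4, a class IIa histone deacetylase, was at 363 and 325 CPM, and Khdc1a at 121 and 135 CPM. Epcam, an adhesion molecule best known from epithelium, had 144 and 182 CPM here and a UMI in 65.4% and 72.6% of gated cells, beside 11.1% and 16.7% of B cells.

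Markers of other lineages were looked for in the same cells. Hba-a1 and Hbb-bs, the globins of erythroid cells, had no UMI in either library, where 0 of 845 and 0 of 559 cells (3 counts of each total) limit the cells with such a UMI to 0.355% and 0.537%. Krt5 of thymic epithelium was also at 0. Cd4 had a UMI in 8 WT cells (0.947%) and 17 cKO cells (3.04%), beside 4.44% and 4.17% of B cells, and 2 or more Trac UMIs occurred in 4 WT and 9 cKO cells. At least 1 UMI of the early progenitor genes Kit or Cpa3 was present in 12.9% and 15.7%, and Kit alone in 8.64% and 10.2%, beside 5 of 45 and 6 of 24 B cells. Of genes best known from B cells and other lineages, Cd79b (75.1 and 66.4 CPM), Ighm (98.9 and 73.3 CPM), Cst3 (143 and 146 CPM) and Pecam1 (55.2 and 52.6 CPM) were spread over many gated cells. S100a4 had 58 UMIs in the cKO gate, 57 of them in 1 cell, and none in WT. The label DN3 held for most gated cells, and the few cells with markers of other types were left out in 1 alternative whose counts are given with the genotype comparison.

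The Ptcra limit cuts a continuous range. The median gated cell had 5 Ptcra UMIs in WT and 4 in cKO, with maxima of 24 and 15. Just outside the limit, at exactly 2 Ptcra UMIs, lay 216 WT and 218 cKO cells that met every other limit, and just inside, at exactly 3, lay 206 and 176 cells. Going from 2 to 3 UMIs, Notch3 was at 157 and 205 CPM in WT and at 163 CPM on both sides in cKO. H19 was at 86.8 and 191 CPM in WT and at 51.9 and 73.6 CPM in cKO. Trbc1 was at 1868 and 1655 CPM in WT and at 1624 and 1459 CPM in cKO. Across the limit H19 in WT differed most of these, and Notch3 in cKO was the same on both sides.

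Cells inside the gate differed among themselves along the Ptcra count, and so did their depth, with a median of 8296.5 UMIs in the lowest and 10352 in the highest WT tier and of 8134 and 11627 in cKO. Across cells with 3 to 5, 6 to 10 and over 10 Ptcra UMIs (538, 270 and 37 in WT, 398, 148 and 13 in cKO), Dtx1 was at 79.3, 131 and 153 CPM in WT and at 78.8, 99.6 and 108 CPM in cKO. Pld4 was likewise highest in the top tier of both libraries, at 139, 182 and 297 CPM in WT and 192, 221 and 284 CPM in cKO. Trbc1 ran the other way from the lowest tier to the middle one, at 1556, 1074 and 1195 CPM in WT and 1317, 1157 and 1145 CPM in cKO. H19 was at 155, 269 and 266 CPM in WT and at 75.7, 156 and 54.2 CPM in cKO, where the last value rests on 13 cells. Bcl2 was lowest in the top tier of both libraries, at 167, 135 and 122 CPM in WT and 316, 292 and 264 CPM in cKO. In each of these 3 tiers Bcl2 was therefore higher in cKO and H19 higher in WT.

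After each cell was thinned to 3000 UMIs, genes differed in how unevenly they were spread, measured by the Fano factor (variance over mean, with 1 for pure counting noise). The median gene of 3800 had 1.03 in WT and 1.04 in cKO. The nuclear noncoding RNA Malat1 stood highest at 18.4 and 16.4. Trbc1 had 5.42 and 4.16, H19 5.43 and 3.30, and Trbc2 3.65 and 3.23, all among the 6 genes with the highest lower value of the 2 libraries. Hes1 had 2.50 and 2.74, and Egr1, an immediate early gene induced by receptor signals, 2.32 and 2.83. By this measure the counts of both β constant genes and of H19 varied from cell to cell far more than those of the median gene. Genes were not matched by mean level, which in thinned WT cells was 3.95 UMIs for Trbc1, 5.88 for Trbc2 and 0.676 for H19. Crip1 (3.94 and 4.07) and Ly6d (3.94 and 3.82) completed the 6 highest.

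The 2 β constant genes were used to different extents in single cells. Of cells with at least 10 UMIs of Trbc1 and Trbc2 together (671 WT and 438 cKO), Trbc1 gave a median of 39.7% of these UMIs in WT and 39.9% in cKO, with middle ranges of 17.7 to 57.0% and 20.2 to 56.6%. Trbc1 gave under 10% in 115 WT cells (17.1%) and 62 cKO cells (14.2%), and over 60% in 138 and 84 cells. The distribution was broad and nearly the same in both libraries. The last 300 bases of Trbc1 and Trbc2 transcripts are 92% identical in their best-matching pair, so some reads could have been counted for the wrong copy.

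The presence of H19 divided the gated cells into groups that differed in other genes, a split chosen after its values were seen and given as description. Cells with an H19 UMI numbered 314 in WT and 134 in cKO, and cells without one 531 and 425. Depth was nearly matched, with medians of 8221.5 and 8542 UMIs in WT and 8506.5 and 8412 in cKO. Cells with H19 had 2.41-fold more Khdc1a (2.11 to 2.75) in WT and 2.64-fold more (2.27 to 3.07) in cKO. Pld4 was 1.90-fold higher in H19-positive cells of either library, Capg, an actin-capping protein, 2.74-fold and 2.11-fold, and Vim, an intermediate filament protein, 1.79-fold and 1.81-fold. Khdc1a, Pld4, Capg and Vim were picked from the 10 genes named as higher by this same split, so their ratios are not independent evidence. Of the stage genes, Dtx1 was 1.54-fold and 1.56-fold higher and Rag1 1.43-fold and 1.26-fold. Il2ra was at 769 CPM with H19 and 513 CPM without it in WT, and at 721 and 523 CPM in cKO. Notch1 had ratios near 1, at 1.07 and 1.03. Trbc1 was lower in H19-positive cells, with ratios of 0.575 (0.550 to 0.601) in WT and 0.707 (0.665 to 0.753) in cKO, and Trbc2 had 0.766 and 0.768. In both libraries, then, cells with H19 carried more of the Dtx1, Il2ra and Pld4 RNAs and less β constant RNA.

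**Figure D2:**
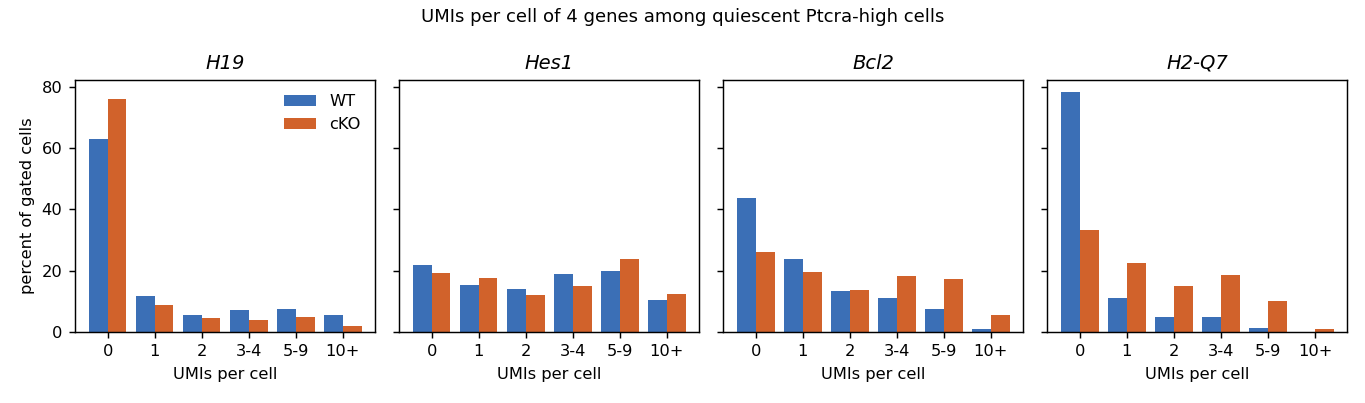
Percent of gated cells (y axis) by the number of UMIs of H19, Hes1, Bcl2 and H2-Q7 in the cell (x axis, bins of 0, 1, 2, 3 to 4, 5 to 9 and 10 or more), with WT in blue (845 cells) and cKO in orange (559 cells). H19 is at 0 in 62.8% of WT and 76.0% of cKO cells, H2-Q7 at 0 in 78.3% and 33.3%, and the Hes1 bars nearly match.

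The number of gated cells differed between the genotypes. They made up 11.8% of kept cells in WT (11.1 to 12.6) and 7.45% in cKO (6.87 to 8.07), a ratio of 0.629 (0.565 to 0.701). Part of the kept cells are DP cells, which were 21.4% in WT and 30.2% in cKO by the resting DP gate. Among the quiescent, cycling, interferon-high and Myl10-positive cells, the 4 gates with few Cd8 UMIs (2223 WT and 1817 cKO cells), the quiescent ones were 38.0% and 30.8%, a ratio of 0.809 (0.726 to 0.902). The Myl10-positive cells were 44.8% and 56.0% of the same total, a ratio of 1.25 (1.14 to 1.37). The gate also leaves out cells with over 4 UMIs of the 4 interferon genes, which were 15.5% of resting Ptcra-high cells in WT and 3.12% in cKO. Without that limit the gate held 1000 WT and 577 cKO cells, with a share ratio of 0.549. With cells thinned to 3000 UMIs before gating, which drops shallower cells, the gate held 273 WT and 147 cKO cells, a share ratio of 0.631. How the bead enrichment and capture of each library bear on these shares was not tested.

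Across genes, the gated cells of the 2 libraries were close. The SETDB genes come first, since the labels do not say which was targeted: Setdb1 was at 33.5 CPM in WT (258 UMIs) and 34.5 CPM in cKO (180 UMIs), a ratio of 1.03 (0.845 to 1.25), and Setdb2 was at 6.89 CPM (53 UMIs) and 6.32 CPM (33 UMIs). Which exons are floxed is not given, and 3′ counts outside them say nothing of the deletion. Of 8253 genes with at least 100 UMIs over both libraries, 87.4% lay within 1.2-fold. The log2 fold of a gene compares its cKO level with its WT level after 5 CPM is added to each, and ratios are of plain CPM. The median log2 fold of these genes was −0.04, and 4950 of them were below 0. At least 1.5-fold higher in cKO were 39 genes (0.473%) and at least 1.5-fold lower 34 (0.412%), and 8 and 7 of these passed 2-fold. None of the 39 higher genes and 11 of the 34 lower genes were in the interferon list, among them the gate genes Isg15 and Oasl2. Without the cells that carried B, Trac, Fcer1g or S100a4 counts (838 WT and 547 cKO cells left), 39 genes were higher and 35 lower.

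**Figure D3:**
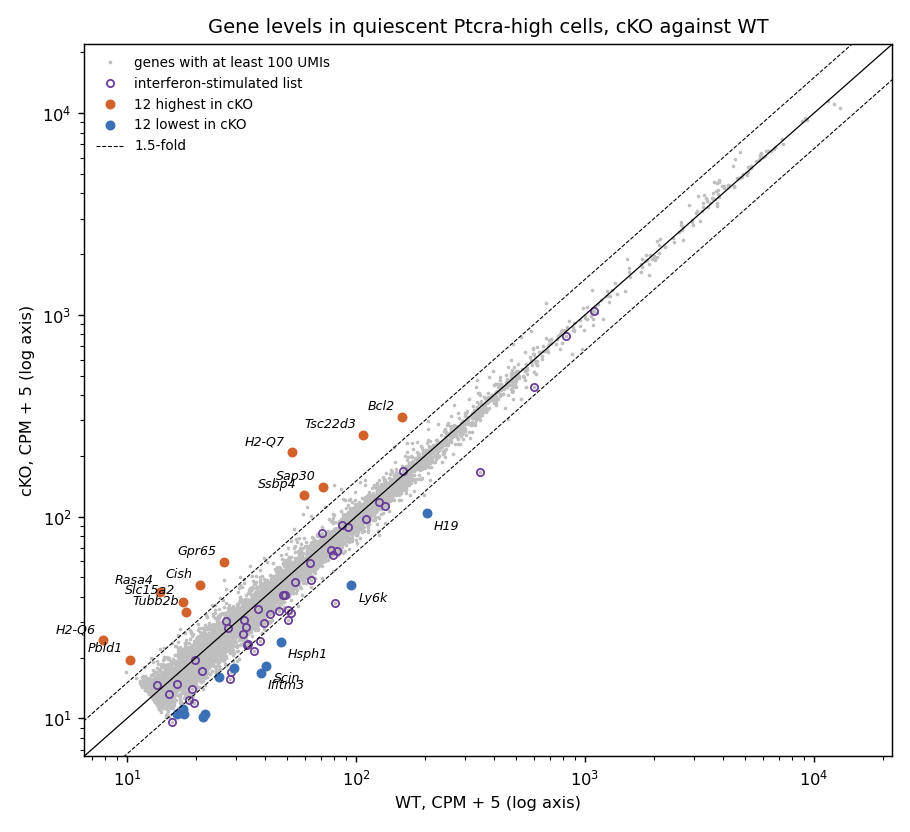
Level of each of 8253 genes in the gated cells of cKO (y axis) against WT (x axis), both as CPM + 5 on log axes, with dashed lines at 1.5-fold; interferon-list genes are ringed in purple, the 12 highest other genes orange and the 12 lowest blue. Most genes lie along the diagonal, H2-Q7 lies farthest above it, and the interferon-list genes past a line are all below it.

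With 5 CPM added, the highest log2 fold was that of H2-Q7, a class Ib gene of the major histocompatibility complex (MHC). H2-Q7 was at 47.4 CPM (WT) and 203 CPM (cKO), a log2 fold of 1.99 and a ratio of 4.29 (3.80 to 4.84), and 21.7% and 66.7% of cells had a UMI. H2-Q6, its neighbour, was at 2.86 CPM (22 UMIs) and 19.3 CPM (101 UMIs), a log2 fold of 1.63 and a ratio of 6.76 (4.23 to 11.3). By plain ratio, with 1 CPM added, and in cells thinned to 3000 UMIs before gating (2 and 12 UMIs of H2-Q6), H2-Q6 stood above H2-Q7. With a stricter cell filter, which left 209 WT and 160 cKO gated cells, the log2 fold of H2-Q6 was 0.70, from 8 and 16 UMIs. The related H2-Q4 was at 75.5 and 138 CPM (log2 0.83), and the classical class I genes H2-K1 (478 and 713 CPM) and H2-D1 (518 and 770 CPM) both had a log2 fold of 0.57, just under the 1.5-fold limit. All 5 were higher in cKO. The H2-Q7 difference was also seen outside the gate, with log2 folds of 1.91 in cycling cells, 1.46 in Myl10-positive cells and 1.79 in resting DP cells. In B cells, another lineage, 53.3% of 45 WT cells and 95.8% of 24 cKO cells had an H2-Q7 UMI, at median depths of 7565 and 12501.5 UMIs.

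The H2-Q6 and H2-Q7 genes are near copies, and the matching stretch upstream of each is shown to make that visible. The RefSeq windows of 110 bases lie on the plus strand of GRCm38.p6 at chr17:35424701-35424810 for H2-Q6 and chr17:35439045-35439154 for H2-Q7, and capitals mark the only 3 positions at which they differ. The H2-Q7 window ends at the last base before its annotated start, while the H2-Q6 window was placed by alignment to it, with 39 bases between its end and its own start.

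H2-Q6: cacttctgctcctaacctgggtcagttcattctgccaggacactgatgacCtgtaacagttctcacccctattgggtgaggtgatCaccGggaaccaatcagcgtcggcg

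H2-Q7: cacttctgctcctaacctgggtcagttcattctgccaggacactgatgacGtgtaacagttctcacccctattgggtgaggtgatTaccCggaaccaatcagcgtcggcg

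The last 300 bases of H2-Q6 and H2-Q7 transcripts, where this assay reads, are 95% identical in their best-matching pair. How the counts divide between these 2 genes is therefore uncertain. For H2-K1 and H2-D1 the same figure is 93.3%, and for H2-Q4 and H2-Q7 it is 53%.

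The other genes highest in cKO have varied known roles. Rasa4, a negative regulator of Ras, was at 8.96 CPM (WT) and 37.5 CPM (cKO), a log2 fold of 1.61 and a ratio of 4.18 (3.16 to 5.59). It had a UMI in 7.57% and 18.8% of gated cells, beside 4.44% and 16.7% of B cells, so its share of cKO cells is near that of cKO B cells. With the stricter cell filter, the log2 fold of Rasa4 was 0.63, from 13 and 21 UMIs. Tsc22d3, which encodes the glucocorticoid-induced leucine zipper GILZ, was at 103 and 248 CPM (log2 1.23, ratio 2.41, 2.21 to 2.64), with a UMI in 50.2% and 82.1% of cells. Gpr65, a proton-sensing receptor, was at 21.4 and 54.3 CPM (log2 1.17). Cish, a STAT5-induced inhibitor of cytokine signalling, was at 15.9 and 40.6 CPM (log2 1.13). Slc15a2, a peptide transporter, was at 12.5 and 32.9 CPM (log2 1.12).

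Ssbp4, a single-stranded DNA-binding protein, was at 54.2 CPM (WT) and 123 CPM (cKO) (log2 1.11). Bcl2, the main anti-apoptotic gene of resting lymphocytes, was at 154 and 308 CPM, a log2 fold of 0.97 and a ratio of 1.99 (1.85 to 2.15). A Bcl2 UMI was found in 56.3% and 73.9% of cells, beside 28.9% and 45.8% of B cells, and 10 or more UMIs in 0.828% and 5.37%. The higher Bcl2 level in cKO thus came with both more positive cells and more UMIs in the highest ones. With the stricter cell filter, the fold of Bcl2 was 0.48 and that of Cish 0.56, both under 1.5-fold. Sap30, a subunit of the SIN3 histone deacetylase complex, was at 66.5 and 135 CPM (log2 0.97). Tubb2b, a β-tubulin, was at 13.1 and 28.5 CPM (log2 0.89). Pbld1 was at 5.33 and 14.5 CPM (log2 0.92) with UMIs in only 14 WT and 17 cKO cells.

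**Figure D4:**
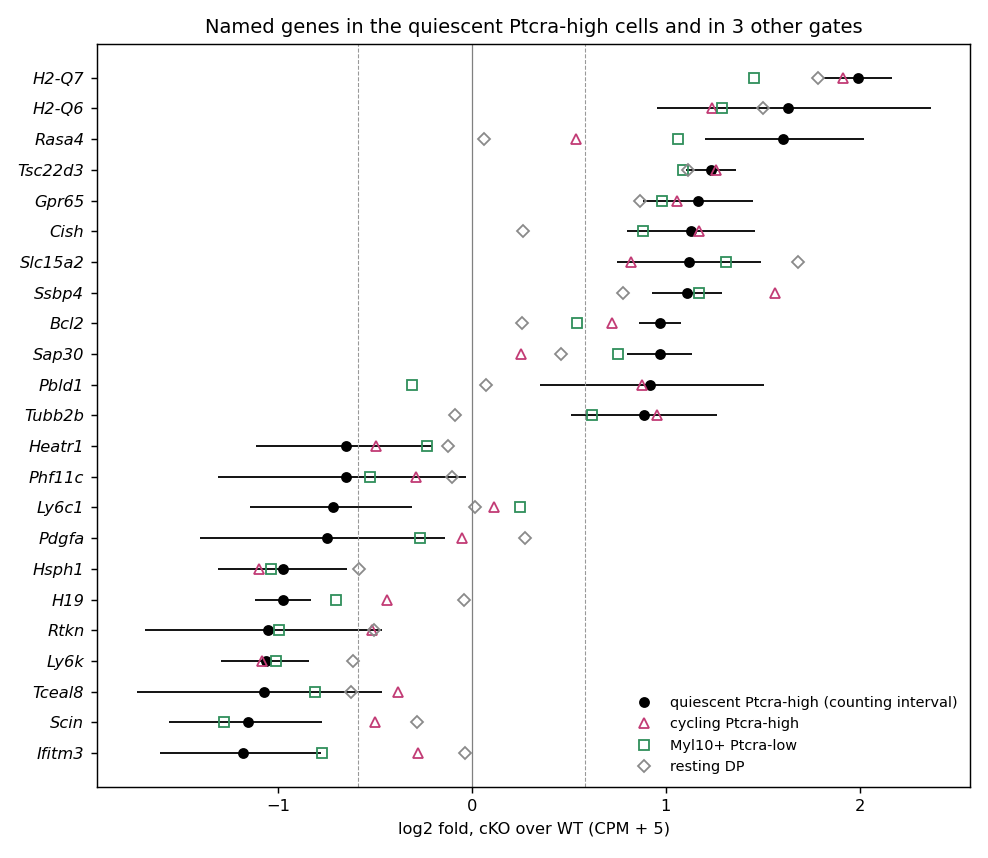
Log2 fold of cKO over WT (x axis) for the 12 genes highest and 11 of the 12 lowest in cKO outside the interferon list, in the gated cells (black points, with 95% counting intervals) and in cycling, Myl10-positive and resting DP cells (coloured marks). H2-Q7 and Tsc22d3 have folds over 1 in all 4 gates, while Rasa4 and H19 lie near 0 in resting DP cells.

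The folds of these genes in the neighbouring gates differed from gene to gene. Tsc22d3 had log2 folds of 1.26 in cycling, 1.09 in Myl10-positive and 1.12 in resting DP cells, close to its value in the gate. Ssbp4 had 1.57, 1.17 and 0.78, and Slc15a2 0.82, 1.31 and 1.68, in the same order. Bcl2 had its highest value in the gate, with 0.72, 0.54 and 0.26 elsewhere, and Rasa4 did too, with 0.54, 1.06 and 0.07. Cish had 1.17 in cycling cells and 0.27 in resting DP cells. Whether any of these folds differs between stages could not be tested with 1 library of each genotype.

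Among the genes lowest in cKO, H19 was the DN3 marker. H19 was at 199 CPM in WT (1528 UMIs) and 98.7 CPM in cKO (516 UMIs), a log2 fold of −0.97 and a ratio of 0.497 (0.449 to 0.550). Both the share of H19-positive cells (37.2% and 24.0%) and the mean count in positive cells (4.87 and 3.85 UMIs) were lower in cKO. It was also lower in Myl10-positive cells, at 44.0 and 25.2 CPM. H19 was the only one of 7 tested imprinted genes past 1.5-fold, their median was −0.08, and 11 listed imprinted genes had no UMI in either library. Of all tested genes, 0.412% passed 1.5-fold lower. The genes that went with H19 among cells did not all share its lower level in cKO: Pld4 had a log2 fold of 0.32, Khdc1a 0.15 and Dtx1 −0.21.

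Scin, an actin-severing protein, was at 35.6 CPM (WT) and 13.2 CPM (cKO) (log2 −1.16, ratio 0.371, 0.281 to 0.485). Ly6k, of the Ly6 family, was at 90.3 and 40.6 CPM (log2 −1.06), and Rtkn at 16.9 and 5.55 CPM (log2 −1.05). Tceal8 was at 16.4 and 5.17 CPM (log2 −1.07), and Pdgfa, a growth factor, at 12.7 and 5.55 CPM (log2 −0.75). Scin, Ly6k and Rtkn were also lower in Myl10-positive cells, with log2 folds of −1.28, −1.01 and −0.99. Tceal8 had 0.46 when cells were thinned to 3000 UMIs before gating, a value from 7 and 6 UMIs. In that setting Rtkn (−0.51), Pdgfa (−0.27) and, of the higher genes, Tubb2b (0.22) also lay under 1.5-fold. Heatr1 (20.3 and 11.1 CPM) had −0.65. Ifitm3 (33.3 and 11.9 CPM, log2 −1.18), Ly6c1 (24.3 and 12.8 CPM, log2 −0.72) and Phf11c (11.6 and 5.55 CPM, log2 −0.65) were not in the interferon list, but are known as interferon-inducible genes. Ly6c1 was under 1.5-fold with at least 2 Ptcra UMIs as the limit (−0.52), and Phf11c with the stricter filter (−0.43) or no cycle UMIs (−0.49).

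Heat-shock and chaperone genes lay below 0 together. Of 21 tested members, 21 had a fold below 0 and 1 passed 1.5-fold, with a median of −0.25 beside −0.04 for all genes. Among all 8253 tested genes, 4950 were below 0, 0.412% passed 1.5-fold lower and 0.473% higher. Hsph1, a cochaperone of HSP70, was the 1 past the limit, at 42.0 CPM (WT) and 18.9 CPM (cKO) (log2 −0.97). Hsp90aa1, the inducible HSP90, was at 870 and 633 CPM (log2 −0.45), Stip1, which links HSP70 and HSP90, at 118 and 86.9 CPM (−0.43), and Dnaja1 at 481 and 378 CPM (−0.34). Heat-shock genes respond to handling of cells, and differences between the preparations cannot be told apart from genotype here. Immediate early genes, which respond to handling too, had a median of 0.14, with 2 of 21 past 1.5-fold higher: Nfkbia, the inhibitor of NF-κB, at 48.5 and 81.9 CPM, and Cd69, an activation marker, at 80.6 and 131 CPM.

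Glucocorticoid and FOXO response genes lay mostly above 0. Of 26 tested members, 21 were above and 5 below 0, with a median of 0.23. Of them 4 passed 1.5-fold higher, beside 0.473% of all tested genes, and none lower, beside 0.412%. Beside Tsc22d3, these were the clock gene Per1 (55.9 and 106 CPM, log2 0.87), the RNA-decay factor Zfp36l2 (667 and 1139 CPM, log2 0.77) and the mTORC1 inhibitor Ddit4 (18.6 and 31.4 CPM, log2 0.63). Tsc22d3, Zfp36l2 and Ddit4 are also among the genes that earlier results on these samples had given as raised in cKO at several stages. They are therefore not independent evidence here. Fkbp5, a chaperone of the receptor, was at 507 and 564 CPM, and Nr3c1, the glucocorticoid receptor itself, at 255 and 309 CPM, both under the limit. In the wider list of apoptosis regulators, only Bcl2 of 20 members passed 1.5-fold, and the median was 0.03. The pro-apoptotic Bmf (25.5 and 37.1 CPM, log2 0.47) and Bcl2l11, which encodes BIM (51.5 and 72.9 CPM, log2 0.46), were also higher in cKO but under the limit. Of 14 tested p53 targets, 13 lay below 0, with a median of −0.17, and Cdkn1a, a cell cycle inhibitor, passed 1.5-fold lower at 121 and 75.8 CPM (log2 −0.64).

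DN3 markers and T-lineage factors had few members past 1.5-fold. Of 20 tested DN3 markers, among them the gate gene Ptcra, 18 were below and 2 above 0, with a median of −0.17. H19 and Lef1 passed 1.5-fold lower, as did 0.412% of all tested genes. Lef1, a partner of TCF1 in β-selection, was at 193 CPM (WT) and 123 CPM (cKO) (log2 −0.64, ratio 0.634). Of 33 tested T-lineage transcription factors, none was past 1.5-fold higher and 1, Lef1 again, past 1.5-fold lower. Of these factors 14 were above and 19 below 0, near the share for all genes, with a median of −0.10. Gata3, which drives T lineage commitment, was at 120.1 and 80.0 CPM (ratio 0.669, 0.594 to 0.751). Sox4 was at 969 and 675 CPM (ratio 0.697), Bcl11b, a commitment factor, at 1074 and 883 CPM, and Tcf7, which encodes TCF1, at 497 and 433 CPM. Gata3 and Sox4 had log2 folds of −0.55 and −0.52, just inside the limit.

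Notch genes themselves showed no member past 1.5-fold in either direction. Of 27 tested, 20 were below and 7 above 0, and the median was −0.09. For this and the next lists, the background is all 8253 tested genes, of which 4950 were below 0. Of that background, 0.473% passed 1.5-fold higher and 0.412% lower, and no list was tested against it. Hes1 had a ratio of 1.11 (1.05 to 1.17) and Myl10, a gene used by a neighbouring gate, 1.24, with 1064 CPM in WT and 1319 CPM in cKO. Of 15 V(D)J recombination genes none was past the limit, 11 were below 0, and the median was −0.10. Rag1 had a ratio of 0.771 (0.727 to 0.816). Of 8 receptor chain genes, 7 were below 0 and none was past the limit.

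Genes of proximal receptor signalling had a median near that of all genes (−0.04), while the β-selection response had a higher one. Of 30 tested proximal signalling genes, only Ubash3a, a phosphatase that restrains receptor signals, passed 1.5-fold, at 68.1 CPM (WT) and 106 CPM (cKO), and the median was −0.02. Of 15 tested genes of the β-selection response, 11 were above and 4 below 0, with a median of 0.14. The 3 past 1.5-fold higher were Cd69, Nfkbia and the chemokine receptor Cxcr4 (58.9 and 95.9 CPM). Cd69 and Nfkbia are the same genes that passed the limit among the immediate early genes, which respond to handling too. Of all tested genes, 0.473% passed 1.5-fold higher. When cells were thinned before gating, 5 members were left, with a median of −0.02 relative to all genes. These cells carry slightly more Trac and Cd4 in cKO, as given above. Leaving out the cells with 2 or more Trac UMIs, together with those with B, Fcer1g or S100a4 counts, changed the total counts by at most 1 gene. Those totals are over all tested genes and do not show the β-selection genes by themselves. Whether cells with Trac or Cd4 bear on the folds of these genes was not tested.

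**Figure D5:**
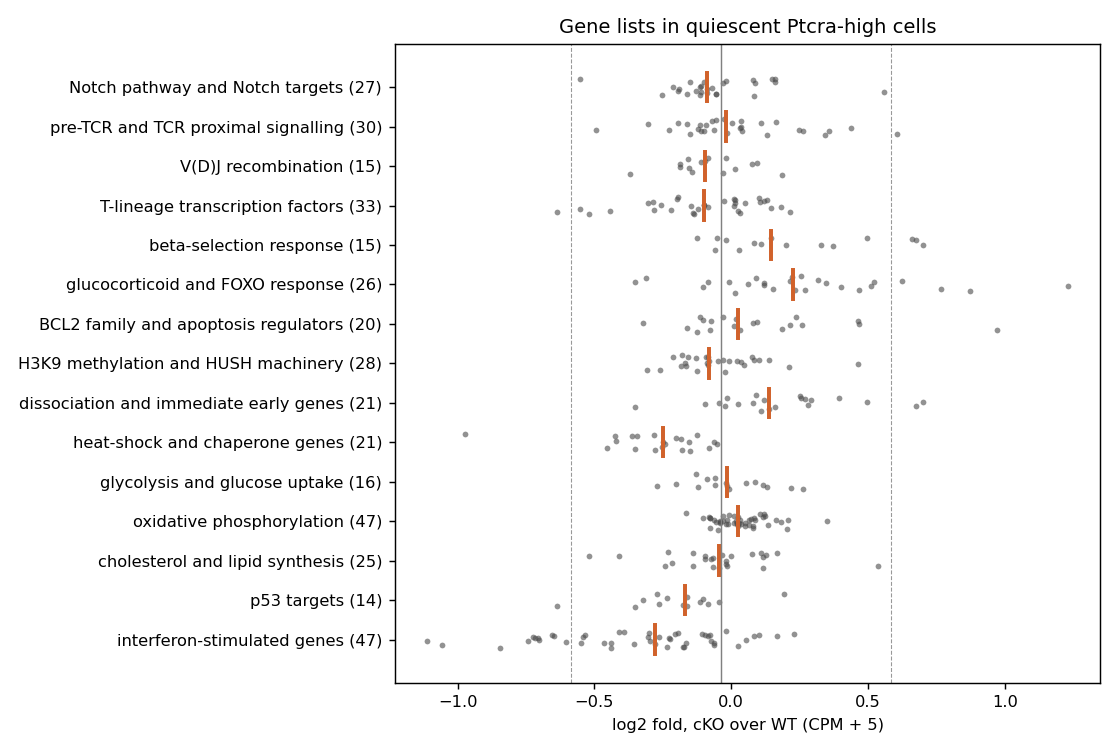
Log2 folds of cKO over WT (x axis) of the tested members of 15 gene lists in the gated cells, 1 point for each gene, with the list median as a bar, the number of members tested in brackets, a grey line at the median of all genes and dashed lines at 1.5-fold. The heat-shock points all lie below 0, the glucocorticoid and FOXO points mostly above, and the oxidative phosphorylation points close to 0.

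Growth and metabolism genes differed little. Glycolysis genes (16 tested, median −0.02), cholesterol synthesis genes (25 tested, median −0.04) and the unfolded protein and ATF4 response (20 tested, median −0.07) had no member past 1.5-fold. Oxidative phosphorylation (47 tested, median 0.03) had none either, and S phase genes (28 tested, median 0.01) had none, in cells chosen for few cycle UMIs. Of 28 tested genes of H3K9 methylation and the HUSH silencing complex, none was past the limit and 19 were below 0. Among all 8253 tested genes, 4950 were below 0, and only 0.473% passed the limit higher and 0.412% lower. Resf1, a partner of SETDB1, was at 105 CPM (WT) and 147 CPM (cKO) (log2 0.46). Genes that earlier results on these samples had given as raised in cKO at several stages are not independent evidence here: 7 of 14 tested passed 1.5-fold higher and none lower. Of those given as raised in cKO Treg cells, none of 6 tested passed 1.5-fold. Ctla4, a Treg marker also detected in 44.6% and 56.2% of these cells, was at 84.2 and 116 CPM.

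Interferon-stimulated genes come last because 4 of them set the gate. As background, they are induced by type I and type III interferons through transcription factor complexes that bind a shared promoter element. Isg15, a ubiquitin-like modifier, is shown as the example. The RefSeq sequence of 150 bases before its start lies on the minus strand of GRCm38.p6 at chr4:156200819-156200968, and capitals mark 3 overlapping matches to GAAANNGAAA, the repeat to which such factors bind, searched on both strands.

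Isg15: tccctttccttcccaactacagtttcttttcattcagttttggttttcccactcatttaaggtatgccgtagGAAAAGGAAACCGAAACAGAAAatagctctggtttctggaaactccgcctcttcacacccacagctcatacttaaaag

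Of all 32851 promoter windows of 250 bases, 2.98% held GAAANNGAAA. It was found for 13 of 34 matched members of the interferon list (38.2%). A list member counted if any of its windows held the motif, so this share is by gene and the other by window. Of 47 tested members, 41 had folds below 0 and 6 above, 11 were past 1.5-fold lower and none higher, and the median was −0.28. The gate keeps out cells with the highest counts in both libraries, so these folds describe what was left. With those cells let in, the list's median relative to all genes was −0.45, beside −0.24 with the limit. Isg15 itself, a gate gene, was at 75.7 CPM (WT) and 32.3 CPM (cKO) (log2 −1.11), and Oasl2, another, at 14.6 and 6.89 CPM (log2 −0.72, and −0.50 with the stricter filter).

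Outside the gate genes, Ifi27 was at 342 CPM (WT) and 162 CPM (cKO), a log2 fold of −1.06 and a ratio of 0.474, with a UMI in 83.6% and 67.3% of cells. Its fold was also near −1 in cycling cells (−1.08), and it was −0.87 in Myl10-positive and −0.76 in resting DP cells. Irf7, the factor that amplifies the interferon response, was at 23.3 and 10.7 CPM (log2 −0.85), and −0.23 in cycling and −0.05 in resting DP cells. It was −0.56, under 1.5-fold, with the stricter cell filter. Ifi44 was at 23.5 and 12.1 CPM (log2 −0.74, and −0.18 after thinning), Zbp1, a sensor of Z-form nucleic acid, at 45.2 and 25.8 CPM (−0.70), and Rtp4 at 46.9 and 28.1 CPM (−0.65). Ifi27l2a was at 30.8 and 16.6 CPM (−0.73), and −1.11 without the cells that carried other lineages' markers.

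Other members differed less. Bst2, which encodes the viral tether tetherin, was at 591 and 434 CPM (log2 −0.44), Ly6e at 1091 and 1043 CPM, and the immunoproteasome subunit Psmb8 at 818 and 778 CPM. Tap1, the peptide transporter that loads class I molecules, was at 66.0 and 78.3 CPM (log2 0.23), the only listed member above 0 whose interval left out a ratio of 1. The receptor genes Ifnar1 (43.5 and 43.1 CPM) and Ifnar2 (37.8 and 41.0 CPM) were nearly equal.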

How the data were processed

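The authors deposited, for each of 2 libraries, a matrix of raw counts (UMIs of each gene in each barcode), written by Cell Ranger 6.1.1 per the file headers. CASAVA 1.8 and Seurat 4.0.3 are named without a role in the submitters' processing notes, and what genome build was aligned to is not stated there. From these counts, barcodes were filtered and gated as stated, in Python 3.11.15 with numpy 2.4.6, scipy 1.17.1 and pandas 2.3.3.

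UMIs were summed over the gated cells of each library and scaled to CPM, and folds were taken with a pseudocount of 5 CPM over genes with at least 100 UMIs. The scripts were tested on simulated data. With 1 library per genotype no replicate error exists. Sums carry exact Poisson intervals, shares Clopper-Pearson intervals and ratios the exact binomial interval of both counts. B cells were barcodes with at least 5 UMIs of B cell genes. Doublets were scored with scrublet in scanpy 1.11.5: its automatic threshold was 0.290 in WT and 0.638 in cKO, where it called 1 cell, so 0.290 was used for both (148 WT and 129 cKO cells), and doublets were left out only as an alternative.

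Named genes are the 12 highest and 12 lowest folds whose ratio interval leaves out 1, without interferon-list, segment, mitochondrial, sex-linked and unnamed genes, up to 6 interferon-list genes each way by the same rule, the 15 genes highest over other kept cells in both libraries, and members of the 34 lists. 1 gene that the rule names is not reported here. The members and lists were chosen with earlier results of these data known. The Fano factors and the H19 split were added after values were seen.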

Additional observations from a re-analysis of the deposited data

How the results depend on the processing

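The share ratio of gated cells, 0.629, was 0.779 with a filter of at least 1000 genes, 2000 UMIs and at most 5% mitochondrial UMIs, 0.526 with at least 5 Ptcra UMIs, and 0.549 without the interferon limit, and it stayed under 1 in all 9 alternatives. The 39 genes higher in cKO were 25 when cells were thinned to 3000 UMIs before gating (1946 genes tested), 67 with a pseudocount of 1 CPM and 24 with 10 CPM. The 34 lower genes were 52 with the stricter cell filter (4974 genes tested) and 55 with at least 5 Ptcra UMIs (6626 tested). They were 93 and 17 with those pseudocounts, and 54 with a minimum of 1 UMI (14886 tested). Lower genes outnumbered higher ones under thinning (49 and 25), the stricter filter (52 and 28) and at least 5 Ptcra UMIs (55 and 42). The same held with a pseudocount of 1 CPM (93 and 67), no interferon limit (43 and 40) and no cycle UMIs (46 and 41). Without cells with Cd4 UMIs both counts were 38. In the other alternatives higher genes outnumbered lower ones. Folds centred on the median gave 46 higher and 28 lower, and totals without mitochondrial and ribosomal genes 55 and 42. Of 496 values (31 named genes by 16 alternatives), 465 stayed within their counting interval, 30 moved and 1, Tceal8 under thinning, turned to 0.46. The H19 fold lay between −1.11 and −0.86. List medians relative to all genes turned for mature T and Treg markers (−0.018, stricter filter), the β-selection response (−0.016, thinned), G2 and M phase (0.16, thinned), B cell markers (0.0061, no interferon limit) and γδ genes (0.081, minimum of 1 UMI). The cause of these moves was not tested. The alternative without cells of other types was chosen after seeing the data. No paired analysis was possible because each genotype is 1 library with no replicate number, and no replicate could be left out. Depth limits genes under 100 UMIs, where counting intervals are wide.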
